A study of Mus musculus with 12 samples.

Results

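The adipogenic transcription factors examined here were Pparg, Cebpa, Cebpb, Cebpd, Srebf1, Rxra, Klf15, Ebf1, Ebf2 and Zfp423, 10 of the 54532 mouse genes measured. They were found by matching Ensembl identifiers to gene symbols. Their mRNA was followed by RNA-seq in bone marrow mesenchymal stem cells (MSCs), the common progenitors of osteoblasts and adipocytes, with 12 libraries in 4 groups of 3. All cells came from C57BL/6 mice aged 4 weeks, were at passage 3 and carried floxed Chd7, the gene of a chromatin remodeler. The control groups were Chd7fl/fl without Cre, labelled WT. The knockout groups were Prx1-cre;Chd7fl/fl, in which Cre is driven by a promoter active in early limb bud mesenchyme, so that haematopoietic cells in the same marrow culture keep the gene. For each genotype, 1 group received osteogenic medium, made with 10 nM dexamethasone, 10 mM β-glycerophosphate and 50 µM ascorbic acid. The other received adipogenic medium, made with 1 µM dexamethasone, 0.5 µM isobutylmethylxanthine and 10 µg/ml insulin. RNA was collected after 5 days in either medium. The question was whether these factors differed in mRNA level between the genotypes and between the media.

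These factors are known to act in sequence when a progenitor becomes a fat cell. Glucocorticoid and cAMP signals induce Cebpb and Cebpd, which encode basic leucine zipper proteins. Those proteins activate Pparg and Cebpa, which then maintain each other and switch on lipid storage genes. PPARG is a nuclear receptor that binds DNA with its partner RXRA. SREBF1 drives fatty acid synthesis, KLF15 is a zinc finger factor induced by glucocorticoids, and ZFP423, EBF1 and EBF2 mark or commit preadipocytes. Several of them are also used outside fat. CEBPA and CEBPB act in myeloid cells, where macrophages are rich in both, and EBF1 acts in B cells and in marrow stromal cells.

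Windows before the transcript starts of Cebpb, Cebpa and Pparg, which act in sequence in the cascade, are shown because they differ in kind. Each is the 250 bases before a start, on the plus strand of GRCm38.p6, taken from RefSeq, which had windows for 8 of the 10 factors. Capitals mark matches, on either strand, to the core of a cAMP response element (TGACG), the core of a C/EBP element (TTGCNNAA), the element bound by the TATA-binding protein (TATAAA) and the element bound by NF-Y (CCAAT).
Cebpb, chr2:167688665-167688914: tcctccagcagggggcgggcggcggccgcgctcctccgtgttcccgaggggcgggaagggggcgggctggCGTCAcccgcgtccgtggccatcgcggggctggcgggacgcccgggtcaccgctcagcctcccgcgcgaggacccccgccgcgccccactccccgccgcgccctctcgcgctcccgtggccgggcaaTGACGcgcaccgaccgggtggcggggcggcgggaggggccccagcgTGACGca
Cebpa, chr7:35119043-35119292: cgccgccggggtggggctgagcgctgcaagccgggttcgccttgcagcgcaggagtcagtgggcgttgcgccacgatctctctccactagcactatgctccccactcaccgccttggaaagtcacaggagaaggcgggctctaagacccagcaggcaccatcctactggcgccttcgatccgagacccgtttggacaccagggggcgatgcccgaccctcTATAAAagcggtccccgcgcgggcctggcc
Pparg, start of transcript Pparg-206, chr6:115362099-115362348: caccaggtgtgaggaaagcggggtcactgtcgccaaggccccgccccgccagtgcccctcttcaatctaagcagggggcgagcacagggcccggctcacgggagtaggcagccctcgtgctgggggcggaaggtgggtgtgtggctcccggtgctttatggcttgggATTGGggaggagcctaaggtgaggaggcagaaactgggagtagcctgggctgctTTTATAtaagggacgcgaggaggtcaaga
Pparg, start of transcript Pparg-201, chr6:115421816-115422065: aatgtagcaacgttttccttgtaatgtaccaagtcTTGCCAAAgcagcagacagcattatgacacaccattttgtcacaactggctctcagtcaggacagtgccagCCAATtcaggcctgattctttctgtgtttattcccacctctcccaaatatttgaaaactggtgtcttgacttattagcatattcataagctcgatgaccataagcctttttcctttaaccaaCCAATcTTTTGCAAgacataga

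The Cebpb window was 81.6% G and C and held TGACG 3 times, at -180, -53 and -7 from the start, against at least 1 match in 17.8% of all 32851 mouse windows of this length. The match at -180 lies on the minus strand. The Cebpa window held TATAAA at -30, a motif found in 12.4% of windows. The Pparg-201 window was 40.8% G and C. It held TTGCNNAA at -215 and -16 and CCAAT at -144 and -22, motifs present in 9.56% and 33.8% of windows. The Pparg-206 window held TATAAA at -29 and CCAAT at -83, both on the minus strand. Another Pparg window, nearest to the start of transcript Pparg-202, is not shown. It was 82.4% G and C and held none of the marked motifs. No capital matches overlapped each other. A match is a run of letters and was not tested for binding.

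The libraries held 17490798 to 21093453 fragments on genes, and 3 fragments on a gene of 1 kb, the level that a count of 0 allows, corresponded to 0.143 to 0.185 FPKM (fragments mapped per length of the gene and depth of the library). Chd7 was 2.64, 2.67 and 2.77 FPKM in the osteogenic controls and 2.03, 2.35 and 2.28 FPKM in the osteogenic knockouts (log2 difference -0.20 ± 0.08, adjusted p = 0.16, limma). In the adipogenic libraries it was 2.26, 1.81 and 2.23 FPKM in the controls and 2.03, 2.35 and 2.48 FPKM in the knockouts, so the libraries labelled knockout were not lower. Only exon 2 is floxed and the value covers the whole gene, so it checks the genotype weakly, and knockout stands here for the label. Control replicate 2 in adipogenic medium, labelled WT2_Adipo, stood apart. It correlated at 0.981 with the osteogenic controls and at 0.941 with its own group. Tests of the factors and counts of called genes over lists that use it are given with and without it. Group means, orders of level, counts of groups that did not overlap and some medians are given only with it. The 29 called differences of other genes named below that use it kept their direction and passed the threshold without it, at 0.758 to 1.43 times their size. In the controls, 6 of 10 genes known to be induced by glucocorticoids were lower in adipogenic medium, which held the higher dexamethasone dose, against 12.3% of all tested genes, and in the knockouts all 10 were higher there, against 13.9%. With control replicate 2 left out, 7 were lower and 1 higher in the controls. Whether the libraries carry the right labels was not tested, so each difference between media or genotypes below is a difference between labels. Fkbp5 was 30.6 to 32.6 FPKM in the osteogenic controls and 3.69 to 5.46 FPKM in the adipogenic controls, but 6.19 to 6.90 and 29.9 to 42.8 FPKM in the corresponding knockouts. All 10 macrophage markers reached 1 FPKM in every library. None of the 6 mature adipocyte markers (Adipoq, Plin1, Cfd, Lep, Cidec and Retn) reached 1 FPKM in any, and Lep was at 0 in 11 of 12 libraries.

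In osteogenic controls the order of mean levels was Cebpa (106 ± 3.42 FPKM, SD, n = 3), Cebpb (45.9 ± 1.16), Rxra (41.4 ± 0.565), Srebf1 (24.3 ± 0.724), Pparg (7.39 ± 0.661), Cebpd (6.62 ± 0.595) and Ebf1 (2.38 ± 0.120). Klf15, Ebf2 and Zfp423 followed, each under 0.4 FPKM in every library of the group. Neighbours in this order had separate ranges, apart from Pparg and Cebpd and the last 3 genes, whose ranges overlapped. The osteogenic knockouts had the same order, but there the ranges of Cebpb and Rxra overlapped and those of Ebf2 and Zfp423 did not. In the adipogenic controls Cebpb moved to the top of the order (137 ± 80.3 FPKM), with a range that overlapped that of Cebpa (51.8 ± 18.6 FPKM). In the adipogenic knockouts Cebpa was again first by its mean (77.0 ± 20.8 FPKM), followed by Cebpb (60.6 ± 33.5 FPKM), with overlapping ranges. FPKM is a level per length, so these levels can be compared between genes, but only roughly. The length takes in the exons of all transcripts of a gene, used or not, and some factors share exonic bases with other genes.

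**Figure D1:**
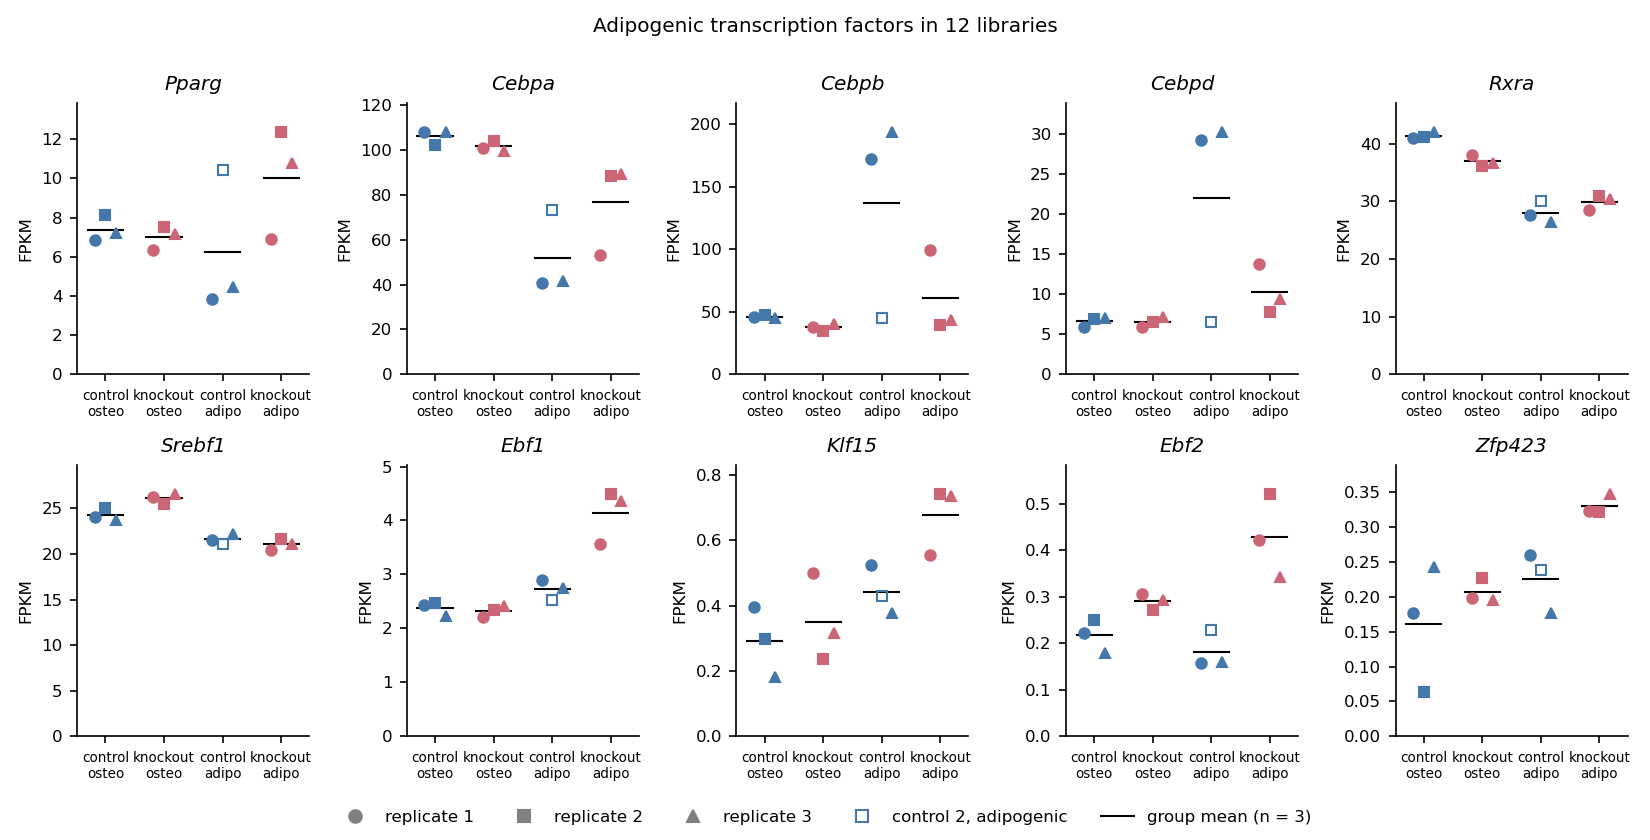
FPKM of the 10 factors in each of the 12 libraries, with a linear axis from 0 in every panel. Points are libraries, shaped by replicate number, lines are group means and the open square is control replicate 2 in adipogenic medium. That library sits with the osteogenic libraries for Cebpb (45.1 FPKM) and Cebpd (6.48 FPKM), while the other adipogenic controls are at 172 and 194 FPKM for Cebpb.

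Differences between groups were tested for all 12871 genes with at least 1 FPKM in at least 3 libraries. A log2 difference is the difference of group means of log2(FPKM + 1), given with its standard error (SE), which understates changes of low genes. Of the 10 factors, 7 passed that filter. Klf15, Ebf2 and Zfp423 did not, and their tests come from a fit without the filter. In a bulk culture, fewer cells of a type and less RNA per cell cannot be told apart.

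Between genotypes in osteogenic medium, none of the 7 tested factors passed an adjusted p of 0.05 in limma, against 9.09% of all tested genes. The lowest p-values of the 7 were those of Rxra (unadjusted p = 0.0118, adjusted p = 0.091) and Srebf1 (unadjusted p = 0.0294, adjusted p = 0.159). The share of all tested genes at such unadjusted values was not computed. Without adipogenic control replicate 2, which enters this test only through the shared estimate of spread, 1 of 7 passed, against 22.3% of all tested genes, and it was Rxra (-0.16 ± 0.04, adjusted p = 0.0163). The 3 libraries of each genotype did not overlap for Cebpb and Rxra, which were lower in the knockouts, and for Srebf1, which was higher, 3 of 7 factors against 44.3% of all tested genes. The median log2 difference over the 7 was -0.06, against -0.01 over all tested genes. When the osteogenic libraries alone were fitted, the calls of Cebpb (-0.29, adjusted p = 0.00745) and Rxra (-0.16, adjusted p = 0.00848) passed. In that fit the number of all tested genes called rose as well, from 1170 to 3412.

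In adipogenic medium 1 of the 7 tested factors, Ebf1, passed the threshold between genotypes, against 33.2% of all tested genes. Without control replicate 2 there were 6 of 7, against 51.2% of all tested genes. Then Pparg, Cebpa, Rxra and Ebf1 were higher in the knockouts, Cebpb and Cebpd were lower, and Srebf1 did not pass. The median over the 7 was 0.09 with all libraries and 0.14 without that library, against -0.01 and -0.0026 over all tested genes. Among the tested factors, only Ebf1 had libraries that did not overlap between the genotypes, 1 of 7 against 38.6% of all tested genes. This count and this share include control replicate 2 and were not computed without it. Rescaling every library to the same sum of FPKM moved the median of all tested genes in this comparison by 0.15. Srebf1 then changed sign to 0.15, the size of that shift.

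**Figure D2:**
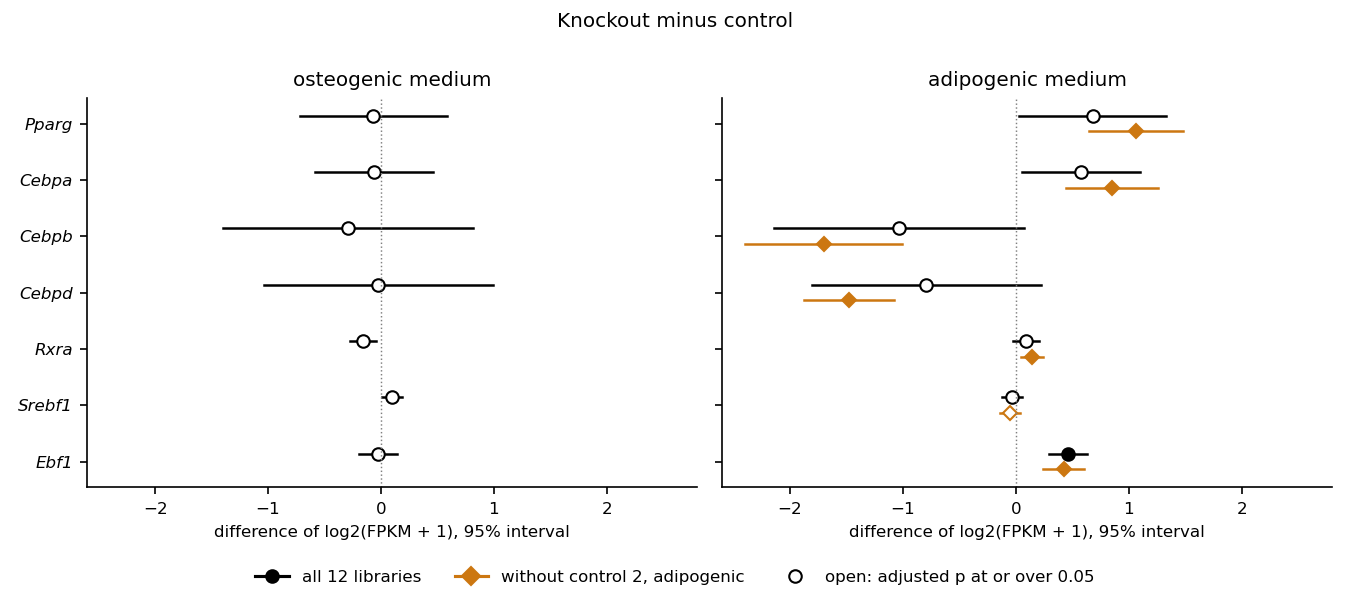
Knockout minus control differences of log2(FPKM + 1) for the 7 tested factors, with bars for the 95% interval, in osteogenic (left) and adipogenic (right) medium. Black circles use all 12 libraries, orange diamonds leave out control replicate 2 in adipogenic medium, and filled symbols have an adjusted p under 0.05. In adipogenic medium Ebf1 (0.46) is the filled circle, whereas 6 of the 7 diamonds are filled.

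Pparg, the receptor at the centre of the programme, is annotated at chr6:115360951-115490399 on the plus strand (GRCm38), with 7 transcripts. It was 6.83, 8.12 and 7.20 FPKM in the osteogenic controls and 6.33, 7.51 and 7.18 FPKM in the osteogenic knockouts. The adipogenic controls had 3.85, 10.5 and 4.45 FPKM and the adipogenic knockouts 6.89, 12.4 and 10.8 FPKM. The genotypes overlapped in both media, and in adipogenic medium the overlap was that of control replicate 2 with knockout replicate 1. The log2 difference between genotypes was -0.07 ± 0.29 in osteogenic medium (adjusted p = 0.931) and 0.68 ± 0.29 in adipogenic medium (adjusted p = 0.0986, limma). Without control replicate 2 the latter was 1.06 ± 0.19 (adjusted p = 0.000991). Between media, Pparg was at a log2 difference of -0.32 ± 0.29 in the controls (adjusted p = 0.458), or -0.70 ± 0.19 without that library (adjusted p = 0.011). In the knockouts it was 0.43 ± 0.29 (adjusted p = 0.31), and 0.65 without knockout replicate 1 (adjusted p = 0.157). The effects differed between media by 0.75 ± 0.41 (interaction, adjusted p = 0.227), or 1.13 ± 0.25 without control replicate 2 (adjusted p = 0.00509). The values sum over transcripts, so the window before Pparg-201 cannot be tied to a level.

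Rxra, the heterodimer partner of PPARG, lies at chr2:27676440-27762957. It was 41.1, 41.1 and 42.1 FPKM in the osteogenic controls and 38.1, 36.2 and 36.6 FPKM in the osteogenic knockouts. It was 27.7, 30.1 and 26.4 FPKM in the adipogenic controls and 28.5, 31.0 and 30.3 FPKM in the adipogenic knockouts. Every adipogenic library was below every osteogenic library. Adipogenic minus osteogenic, the log2 difference was -0.55 ± 0.05 in the controls (adjusted p = 0.000227) and -0.30 ± 0.05 in the knockouts (adjusted p = 0.00244). The control value without control replicate 2 was -0.60 ± 0.04 (adjusted p = 5.39e-06). Between genotypes in adipogenic medium Rxra differed by 0.09 ± 0.05 (adjusted p = 0.203), or by 0.14 ± 0.04 without that library (adjusted p = 0.0209). The knockout value was -0.23 (adjusted p = 0.156) after rescaling to the same sum. The 2 differences differed by 0.25 ± 0.07 (interaction, adjusted p = 0.0375), a call that was lost in 10 of 12 fits that each left out 1 library (adjusted p up to 0.089) and kept without adipogenic control replicate 2 (0.30, adjusted p = 0.00245) or knockout replicate 1. The relative Rxrb, at 9.86 to 13.1 FPKM, was also lower in adipogenic medium in the controls (-0.30, adjusted p = 0.00364), while Rxrg was at most 0.125 FPKM.

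Cebpa, which sustains Pparg in the adipogenic cascade, is a gene at chr7:35119293-35121928. It was 108, 102 and 108 FPKM in the osteogenic controls and 101, 104 and 99.8 FPKM in the osteogenic knockouts. In adipogenic medium it was 40.7, 73.2 and 41.4 FPKM in the controls and 53.0, 88.6 and 89.3 FPKM in the knockouts. All adipogenic libraries of both genotypes were below all osteogenic ones, and knockout replicate 1 stood between the other knockouts and control replicates 1 and 3. Adipogenic minus osteogenic, Cebpa fell by 1.07 ± 0.23 on the log2 scale in the controls (adjusted p = 0.0116), or by 1.35 ± 0.18 without control replicate 2 (adjusted p = 0.00022). The first call missed the threshold when the control libraries alone were fitted (adjusted p = 0.0588). In the knockouts the difference was -0.44 ± 0.23 (adjusted p = 0.196), and -0.19 without knockout replicate 1 (adjusted p = 0.564). The genotype difference in adipogenic medium was 0.58 ± 0.23 (adjusted p = 0.0824), 0.85 ± 0.18 without control replicate 2 (adjusted p = 0.00331) and 0.82 without knockout replicate 1 (adjusted p = 0.0173). The interaction was 0.64 ± 0.33 with all libraries (adjusted p = 0.2) and 0.91 ± 0.24 without control replicate 2 (adjusted p = 0.0138).

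Cebpb, an early factor with the cAMP response element cores shown above, is at chr2:167688915-167690418. It was 45.5, 47.2 and 45.0 FPKM in the osteogenic controls and 37.5, 34.8 and 40.0 FPKM in the osteogenic knockouts. The adipogenic controls had 172, 45.1 and 194 FPKM and the adipogenic knockouts 99.2, 39.3 and 43.3 FPKM. Control replicates 1 and 3 were the highest of all 12 libraries and knockout replicate 1 came next, whereas the other adipogenic libraries lay within the osteogenic range. Adipogenic minus osteogenic, the log2 difference was 1.30 ± 0.50 in the controls (adjusted p = 0.0832) and 1.97 ± 0.31 without control replicate 2 (adjusted p = 0.00056). In the knockouts it was 0.56 ± 0.50 (adjusted p = 0.447), and 0.14 without knockout replicate 1 (adjusted p = 0.879). The adipogenic genotype difference was -1.04 ± 0.50 (adjusted p = 0.133) and -1.70 ± 0.31 without control replicate 2 (adjusted p = 0.00127). The interaction was -0.75 ± 0.70 (adjusted p = 0.481), or -1.41 ± 0.41 without that library (adjusted p = 0.021). Exons of Cebpb share 312 bases with Tmem189 on the opposite strand, which was at 25.3 to 37.6 FPKM. The use of strand in counting is not stated, so part of the Cebpb level is uncertain.

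Cebpd, the companion of Cebpb in the early wave, is at chr16:15887286-15891031. It was 5.93, 6.91 and 7.01 FPKM in the osteogenic controls and 5.87, 6.48 and 7.15 FPKM in the osteogenic knockouts. In adipogenic medium it was 29.3, 6.48 and 30.3 FPKM in the controls and 13.8, 7.83 and 9.38 FPKM in the knockouts. The same 3 adipogenic libraries led as for Cebpb, and every adipogenic knockout was above every osteogenic knockout. The log2 difference between media was 1.34 ± 0.46 in the controls (adjusted p = 0.0584) and 2.02 ± 0.18 without control replicate 2 (adjusted p = 1.69e-05). In the knockouts it was 0.56 ± 0.46 (adjusted p = 0.395), 0.56 ± 0.16 without that control library (adjusted p = 0.0172) and 0.36 without knockout replicate 1 (adjusted p = 0.674). The genotype difference in adipogenic medium was -0.80 ± 0.46 (adjusted p = 0.204), or -1.48 ± 0.18 without that library (adjusted p = 9.33e-05). The interaction was -0.77 ± 0.64 (adjusted p = 0.422) and -1.45 ± 0.24 without it (adjusted p = 0.000976). Cebpd shares 562 exonic bases with Spidr (2.15 to 4.76 FPKM) on the opposite strand, with the same uncertainty.

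The ratio of Cebpb to Cebpa, in FPKM, described the split in 1 value per library. It was 0.421, 0.462 and 0.416 in the osteogenic controls and 0.370, 0.334 and 0.401 in the osteogenic knockouts. With adipogenic induction it was 4.22, 0.616 and 4.68 in the controls and 1.87, 0.444 and 0.486 in the knockouts. Only 3 of the 12 libraries, adipogenic control replicates 1 and 3 and knockout replicate 1, had more Cebpb than Cebpa. Of 10 macrophage markers, 7 were highest of all 12 libraries in adipogenic control replicates 1 and 3, whereas Cd68 and Mrc1 were lowest there and Tyrobp was neither. Cd14, a monocyte and macrophage receptor, was 269, 26.2 and 267 FPKM in the adipogenic controls and 121, 32.4 and 37.8 FPKM in the adipogenic knockouts, and 14.8 to 24.9 FPKM in osteogenic medium. Adgre1, which encodes F4/80, was 1171, 227 and 1136 FPKM in the adipogenic controls and 255, 130 and 127 FPKM in the adipogenic knockouts. The 10 macrophage markers summed to 8051 to 18036 FPKM in the adipogenic controls, 5724 to 7210 FPKM in the adipogenic knockouts, 11672 to 12179 FPKM in the osteogenic controls and 13495 to 13746 FPKM in the osteogenic knockouts. Lyz2 made up most of each sum. It was 8957 to 9355 FPKM in the osteogenic controls and 11033 to 11249 FPKM in the osteogenic knockouts. The mean log2 level of the 10 markers was 7.67 to 7.72 in the osteogenic controls and 7.50 to 7.52 in the osteogenic knockouts. In adipogenic medium it was 7.54 to 8.40 in the controls and 7.15 to 7.52 in the knockouts. Of these 10 markers, 7 were lower and none higher in the adipogenic knockouts than in the adipogenic controls, against 16.5% of all tested genes called lower. When control replicate 2 was left out, 8 were lower and 2 higher, against 26.8% and 24.4%. Their part in the differences of the factors was not tested.

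**Figure D3:**
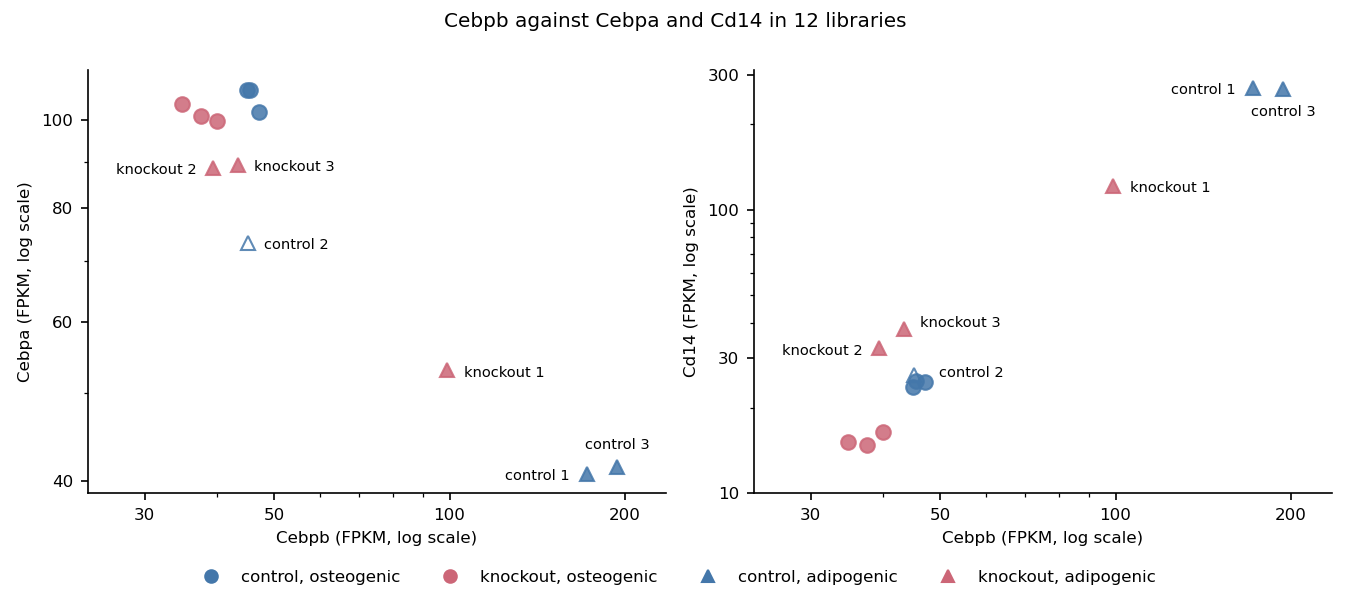
Cebpb against Cebpa (left) and against Cd14, a macrophage marker (right), in FPKM on log axes, with 1 point for each of the 12 libraries. Circles are osteogenic and triangles adipogenic libraries, blue is control and red knockout, and the open triangle is control replicate 2. Adipogenic control replicates 1 and 3 and knockout replicate 1 lie at 99.2 FPKM of Cebpb or more, with Cebpa at 40.7 to 53.0 FPKM and Cd14 at 121 FPKM or more.

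Between media, 3 of the 7 factors passed the threshold in the controls (Cebpa, Srebf1 and Rxra, all lower in adipogenic medium), against 22.8% of all tested genes (10.5% higher and 12.3% lower). Without control replicate 2 there were 6 of 7, against 48% of all tested genes. Then Cebpb and Cebpd were higher and Pparg was also lower, and Ebf1 did not pass. In the knockouts 3 of 7 passed (Srebf1 and Rxra lower, Ebf1 higher), against 27.9% of all tested genes (13.9% higher and 14% lower). There Cebpd also passed without that control library, 4 of 7 against 42.6%. Libraries of the media did not overlap for 4 of 7 factors in the controls, against 34.4% of all tested genes, and for 5 of 7 in the knockouts, against 52.5%. The medians over the 7 were -0.16 in the controls and 0.43 in the knockouts, against 0.01 and 0.00 over all tested genes. Rescaling to the same sum moved the median of all genes by -0.11 in the controls. The difference of the genotype effect between the media passed for Rxra and Ebf1, both higher in adipogenic medium, 2 of 7 against 20.4% of all tested genes (10.9% higher and 9.58% lower). Without control replicate 2 it passed for all 7, against 42.3%. The comparisons share their control libraries, so they are not independent of each other.

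**Figure D4:**
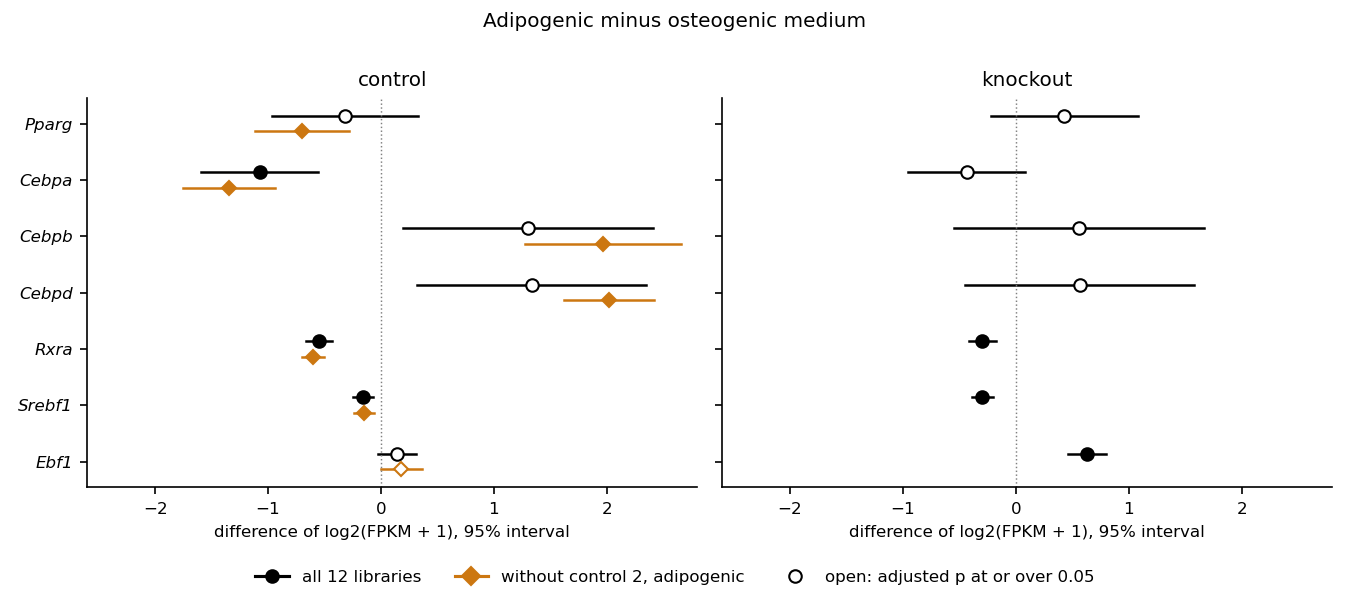
Adipogenic minus osteogenic differences of log2(FPKM + 1) for the 7 tested factors in control (left) and knockout (right) cells, with bars for the 95% interval. Black circles use all 12 libraries, orange diamonds leave out control replicate 2, and filled symbols have an adjusted p under 0.05. Rxra is below 0 in both genotypes (-0.55 and -0.30), and Ebf1 is filled in the knockouts (0.63) but not in the controls (0.14).

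Srebf1, the lipogenic factor, is at chr11:60199089-60222581 on the minus strand. It was 24.1, 25.1 and 23.7 FPKM in the osteogenic controls and 26.3, 25.5 and 26.6 FPKM in the osteogenic knockouts. After adipogenic induction the controls had 21.5, 21.1 and 22.2 FPKM and the knockouts 20.5, 21.7 and 21.1 FPKM. Every adipogenic library was below every osteogenic library of its genotype. The log2 difference between media was -0.30 ± 0.04 in the knockouts (adjusted p = 0.000554) and -0.16 ± 0.04 in the controls (adjusted p = 0.0194), or -0.15 ± 0.04 without adipogenic control replicate 2 (adjusted p = 0.0124). The control call was lost without osteogenic control replicate 1 (adjusted p = 0.0542) or 2 (adjusted p = 0.0779) or without adipogenic control replicate 1 (adjusted p = 0.0609). Between genotypes in adipogenic medium it was -0.03 ± 0.04 (95% interval -0.12 to 0.06, adjusted p = 0.564), and -0.05 without that library (adjusted p = 0.336). The interaction was -0.13 ± 0.06 (adjusted p = 0.123) and -0.15 ± 0.05 without it (adjusted p = 0.0447). Srebf1 shares 109 exonic bases with Rai1 on the opposite strand (5.75 to 8.37 FPKM).

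Ebf1, a commitment factor of the early B cell factor family, spans chr11:44617317-45008091. It was 2.42, 2.46 and 2.24 FPKM in the osteogenic controls and 2.20, 2.33 and 2.41 FPKM in the osteogenic knockouts. After adipogenic induction it was 2.90, 2.53 and 2.75 FPKM in the controls, and 3.57, 4.49 and 4.37 FPKM in the knockouts. The adipogenic knockouts were the 3 highest of the 12 libraries. Knockout against control in adipogenic medium, Ebf1 rose by 0.46 ± 0.08 on the log2 scale (adjusted p = 0.00145), and by 0.42 ± 0.08 without control replicate 2 (adjusted p = 0.00162). In osteogenic medium the difference was -0.03 ± 0.08 (adjusted p = 0.891). The effects differed between the media by 0.49 ± 0.11 (interaction, adjusted p = 0.0111), or by 0.45 ± 0.11 without that library (adjusted p = 0.00791). Adipogenic minus osteogenic, Ebf1 rose by 0.63 ± 0.08 in the knockouts (adjusted p = 0.000271) and the difference was 0.14 ± 0.08 in the controls (adjusted p = 0.198), or 0.18 ± 0.08 without that library (adjusted p = 0.0923).

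The remaining factors were low, at 6 to 68 fragments per library. Klf15 was 0.182 to 0.499 FPKM in osteogenic medium. With adipogenic induction it reached 0.523, 0.428 and 0.376 FPKM in the controls and 0.553, 0.741 and 0.735 FPKM in the knockouts, on 17 to 39 fragments, and the genotypes did not overlap. Ebf2 was 0.158, 0.228 and 0.160 FPKM in the adipogenic controls and 0.423, 0.521 and 0.342 FPKM in the adipogenic knockouts, on 18 to 68 fragments. In osteogenic medium Ebf2 ranged from 0.180 to 0.305 FPKM. Zfp423 was 0.260, 0.238 and 0.176 FPKM in the adipogenic controls and 0.322, 0.322 and 0.347 FPKM in the adipogenic knockouts, on 16 to 37 fragments, and 0.0636 to 0.242 FPKM in osteogenic medium. For each of the 3 the adipogenic knockouts were above all adipogenic controls. With Ebf1, 4 of the 10 factors did not overlap in this comparison. Among all tested genes, a set without these 3, the share was 38.6%. In the fit without a filter the adipogenic genotype difference was 0.27 ± 0.05 for Ebf2 (adjusted p = 0.00709), 0.22 ± 0.09 for Klf15 (adjusted p = 0.172) and 0.12 ± 0.05 for Zfp423 (adjusted p = 0.197). The values without control replicate 2 were 0.30 (adjusted p = 0.00355), 0.21 (adjusted p = 0.216) and 0.13 (adjusted p = 0.196) in the same order. The pseudocount of 1 is above all these values and compresses the differences.

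Of 11 family relatives, 6 were tested. Between genotypes in adipogenic medium Cebpg, a C/EBP protein without an activation domain of its own, rose (0.33, adjusted p = 0.00325). Ppard, the widely expressed PPAR, fell by 0.23 (adjusted p = 0.0116) and Srebf2, the regulator of cholesterol synthesis, fell by 0.23 (adjusted p = 0.000899). Cebpg was 8.21, 9.14 and 8.86 FPKM in the adipogenic controls and 10.6, 11.4 and 11.9 FPKM in the adipogenic knockouts, with no overlap. In osteogenic medium its genotype difference was opposite (-0.38, adjusted p = 0.005), and the effects differed between media by 0.71 (adjusted p = 0.000569). Ppara, Cebpe, Rxrg, Ebf3 and Ebf4 were not tested, and Ebf3 was highest of these at 0.342 to 1.08 FPKM.

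Other regulators of adipogenesis were described as lists. Of 24 activating regulators 20 were tested, and 5 were higher and 5 lower in the adipogenic knockouts than in the controls, with a median log2 difference of -0.06 against -0.01 over all tested genes. Zbtb16 (2.05, adjusted p = 0.000105) and Klf9 (1.28, adjusted p = 8.59e-06), both zinc finger factors induced by glucocorticoids, rose most, followed by the phosphatidate phosphatase Lpin1 (0.72, adjusted p = 0.00694). Mitf (-0.69), Stat5b (-0.37) and the glucocorticoid receptor gene Nr3c1 (-0.32) fell most. Mitf was highest in adipogenic control replicates 1 and 3 (8.35 and 7.98 FPKM), and its placement among activating regulators was not tested here. In osteogenic medium the genotype difference was the other way for Klf9 (-1.15, adjusted p = 8.52e-05) and Zbtb16 (-1.13, adjusted p = 0.00995). Of 24 restraining regulators 21 were tested, and 8 were higher and 2 lower in the adipogenic knockouts, with a median of 0.24. The Notch targets Hes1 (0.76, adjusted p = 0.00164) and Hey1 (0.72, adjusted p = 0.0208) and the forkhead factor Foxc2 (0.75, adjusted p = 0.000187) rose most, and Smad3 (-0.49, adjusted p = 0.0078) fell. In osteogenic medium 3 activating regulators were higher and 2 lower in the knockouts, and 2 restraining regulators were higher and 1, Runx2 (-0.31, adjusted p = 0.0276), lower. Without adipogenic control replicate 2, 5 activating regulators were higher and 8 lower in the adipogenic knockouts, and 11 restraining regulators were higher and 2 lower. The medians were then -0.14 and 0.30 in the same order. By direction, 16.7% of all tested genes were called higher and 16.5% lower in adipogenic medium, and 24.4% and 26.8% without control replicate 2. The osteogenic shares were 4.94% higher and 4.15% lower.

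All 10 glucocorticoid-induced genes, a list that includes Zbtb16 and Klf9, were higher in the adipogenic knockouts than in the adipogenic controls (median 1.24). Of all tested genes 16.7% were called higher there. In the osteogenic knockouts 6 of 10 were lower (median -0.71), against 4.15% of all tested genes. All 10 were also higher in the adipogenic knockouts without control replicate 2 (median 1.17), against 24.4%. Fkbp5 differed by 2.87 ± 0.14 in adipogenic medium (adjusted p = 1.16e-06) and by -2.13 ± 0.14 in osteogenic medium (adjusted p = 3.84e-05). Their part in the differences of the factors was not tested.

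Genes known as targets of PPARG and CEBPA moved in both directions. Of 28 such genes 18 were tested. Between genotypes in adipogenic medium 8 were higher and 5 lower in the knockouts, against 16.7% and 16.5% of all tested genes. Their median was 0.22, against -0.01 over all tested genes. Fabp4, a fatty acid binding protein of adipocytes and macrophages, was 12.7, 19.6 and 13.0 FPKM in the adipogenic controls and 39.1, 35.2 and 39.2 FPKM in the adipogenic knockouts (1.29 ± 0.13, adjusted p = 9.8e-05). Cavin2, a caveolar coat protein, rose by 1.46 ± 0.18 (adjusted p = 0.000308) and Mgll, a monoglyceride lipase, by 1.24 ± 0.34 (adjusted p = 0.0203). The genotypes did not overlap for Fabp4, Cavin2 and Mgll, and 38.6% of all tested genes did not overlap in this comparison. In the other direction Cd36, a fatty acid and lipoprotein receptor also found on macrophages, was 214, 165 and 228 FPKM in the adipogenic controls and 63.1, 89.1 and 85.1 FPKM in the adipogenic knockouts (-1.35 ± 0.14, adjusted p = 0.0001). Acsl1 (-1.33 ± 0.39, adjusted p = 0.027) and Dgat2 (-0.89 ± 0.20, adjusted p = 0.00867), enzymes of fatty acid activation and triglyceride synthesis, were also lower. Cd36 and Dgat2 did not overlap between the genotypes, and Acsl1 did. Without control replicate 2 there were 9 higher and 7 lower, against 24.4% and 26.8% of all tested genes, and the median was 0.39.

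In osteogenic medium none of the 18 targets was higher and 6 were lower in the knockouts, with a median of -0.05. Lpl, the lipoprotein lipase gene, was 116, 117 and 101 FPKM in the controls and 59.3, 62.6 and 54.7 FPKM in the knockouts (-0.91 ± 0.11, adjusted p = 0.000944). Slc27a1 (-0.71, adjusted p = 0.000697) and Fabp4 (-0.68, adjusted p = 0.0118) followed. By direction, 4.94% of all tested genes were called higher and 4.15% lower in this comparison. Between media, Fabp4 was lower in adipogenic medium in the controls (-1.18, adjusted p = 0.000548) and higher in the knockouts (0.79, adjusted p = 0.00193). Plin2, a lipid droplet coat protein, was 92.4, 99.0 and 95.4 FPKM in the osteogenic controls and 77.5, 66.2 and 79.5 FPKM in the adipogenic controls (-0.36 ± 0.08, adjusted p = 0.0122). In the knockouts it was 60.4, 65.9 and 65.4 FPKM in osteogenic and 134, 146 and 159 FPKM in adipogenic medium (1.18 ± 0.08, adjusted p = 7.24e-06).

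**Figure D5:**
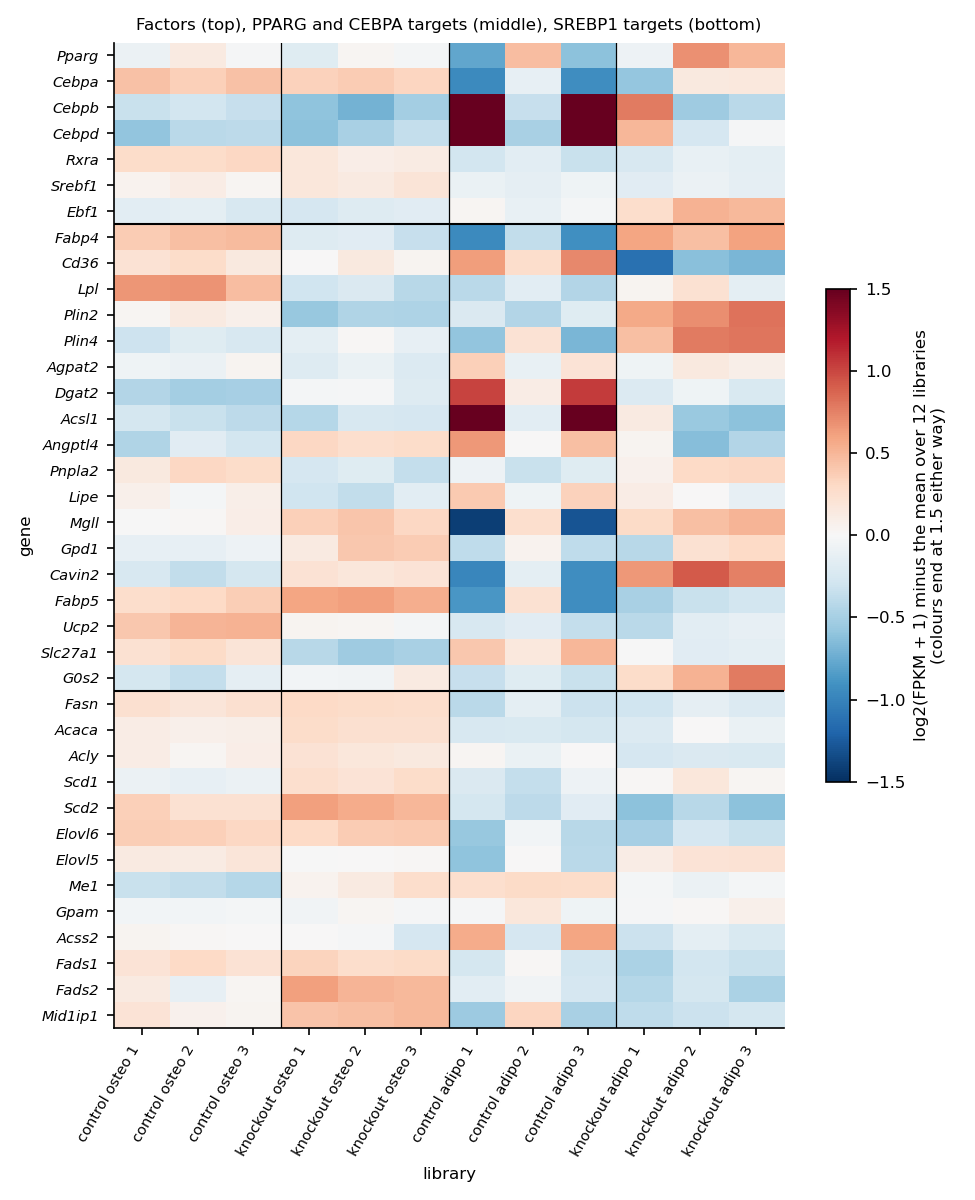
Level of the 7 tested factors (top), 18 tested targets of PPARG and CEBPA (middle) and 13 tested targets of SREBP1 (bottom) in the 12 libraries, as log2(FPKM + 1) minus the mean of the gene over all libraries, with colours ending at 1.5 either way. Each row is a gene and each column a library. Adipogenic control replicates 1 and 3 are dark for Cebpb, Cebpd and Acsl1, and control replicate 2 does not share their colours there.

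Of 15 SREBP1 targets 13 were tested. In osteogenic medium 4 were higher and none lower in the knockouts, against 4.94% of all tested genes called higher, with a median of 0.10, including the malic enzyme gene Me1 (0.52 ± 0.05, adjusted p = 0.000427) and the desaturase gene Fads2 (0.52 ± 0.08, adjusted p = 0.00358). In adipogenic medium 2 were higher, Elovl5 (0.51) and Scd1 (0.29), and 4 were lower, among them Me1 (-0.32, adjusted p = 0.00174), against 16.7% and 16.5% of all tested genes. The median there was -0.09, and without control replicate 2 there were 4 higher and 4 lower, with a median of 0.07. Between media 9 of 13 were lower in adipogenic medium in the knockouts (median -0.41, against 14% of all tested genes), led by Scd2 (-1.10, adjusted p = 7.24e-06), and 6 of 13 in the controls (median -0.34, against 12.3%), led by Elovl6 (-0.69, adjusted p = 0.00405). Leaving out control replicate 2 gave 7 of 13 in the controls, against 23.4% called lower, and 2 were higher, against 24.6%. Fasn, the fatty acid synthase gene, was 43.0 to 45.0 FPKM in the osteogenic controls and 28.3 to 34.0 FPKM in the adipogenic controls (-0.51 ± 0.06, adjusted p = 0.000922). Srebf1 was itself lower in adipogenic medium in both genotypes.

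The genes whose profile over the 12 libraries was most like that of a factor were found by the root mean square difference of centred log2(FPKM + 1) among all tested genes. For Pparg, whose own SD was 0.42, they were Wee1 (0.15), Syne3 (0.19), Gm28875 (0.19), Shpk (0.19) and Gm45819 (0.20). For Cebpa, with an SD of 0.53, they were Smagp (0.12), Tbc1d16 (0.12), Man1c1 (0.13), Snx24 (0.14) and Stab1 (0.15). For Klf15, with an SD of 0.18, they were Itfg2, Caskin2, 2410015M20Rik, Hspa2 and Ndufs6 (0.07 to 0.08). None of the other tested factors was among these 15 genes. Klf15, Ebf2 and Zfp423 could not be among them, because only tested genes were searched.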

How the data were processed

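RNA-seq libraries of MSCs (NEBNext Ultra kit, Illumina HiSeq 2500) were assigned to groups by their labels, and the labels do not say whether replicates came from separate animals, so p-values measure the spread between these libraries. The authors deposited 1 table of FPKM with a column per library. The submitters' processing notes name Bowtie 0.12.2 and mm9, whereas the reporting summary lists HISAT2 and Ballgown, and use of strand is not given in the sources used here. Of 54532 identifiers 54409 (99.8%) matched GENCODE M21 symbols on GRCm38. With its exonic lengths, 98.2% to 98.4% of values under 30 fragments lay within 0.02 of a whole fragment. Coordinates are from that annotation, and promoter windows from RefSeq (GRCm38.p6).

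Genes with at least 1 FPKM in at least 3 libraries were tested on log2(FPKM + 1) in R 4.3.3 with limma 3.58.1, with a mean-variance trend, 4 group means over 12 libraries and Benjamini-Hochberg adjustment over all 12871 tested genes at 0.05. The test was checked on simulated data. The 10 factors, the gene lists and the tests were chosen with earlier results of these data known, so counts over them are descriptions. The genes named were the 10 factors, Chd7, family relatives, markers and, per list and comparison, up to 3 genes per direction with the largest difference past the threshold. The values of 1 listed gene are not reported here. Fabp4, Plin2, Fasn, Cd14 and Adgre1 were given in further comparisons after their values were seen. Alternatives were a pseudocount of 0.1, no filter, rescaling to the same sum (TPM), no trend, only the libraries compared, a replicate block, limma voom on recovered fragments and each library left out. Leaving out 2 adipogenic libraries was added after seeing the data. Fragments are not independent molecules, so depth limits cover counting error only. Figures were drawn in Python 3.11.15 with matplotlib 3.10.9.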

Additional observations from a re-analysis of the deposited data

Results flagged for a closer look

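The knockout effect differed between the media for 2 of the 7 tested factors by a test of that difference, against 20.4% of all tested genes. It was 1 factor without a filter on low values and 1 after rescaling to the same sum, Ebf1 each time, and none with a replicate block, where Ebf1 was at an adjusted p of 0.0512. For Ebf1 the knockout minus control log2 difference was 0.49 higher in adipogenic than in osteogenic medium (adjusted p = 0.0111, limma), and it stayed past the threshold in all 12 fits that left out 1 library (0.44 to 0.57). For Rxra the corresponding value was 0.25 (adjusted p = 0.0375), and it passed in 2 of those 12 fits (0.21 to 0.30).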

How the results depend on the processing

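Of the 518 values recomputed for single factors under the alternatives, 458 kept their direction and side of the threshold, 34 passed it newly, 21 no longer passed and 5 changed sign. Sign changes were those of Cebpd between genotypes in osteogenic medium without osteogenic control replicate 2 (0.0061), osteogenic control replicate 3 (0.015) or osteogenic knockout replicate 1 (0.039), over a range of -0.089 to 0.039 with 1 library left out, and of Srebf1 after rescaling to the same sum, between genotypes in adipogenic medium (0.147) and in the interaction (0.054). The number of factors past the threshold in osteogenic medium was 0, and 2 when only the libraries compared were fitted. Between genotypes in adipogenic medium it was 1, with a range of 1 to 6 when 1 library was left out. In the interaction it was 2, and 1 without a filter, 1 after rescaling and 1 to 7 with 1 library left out. Between media in the controls it was 3, and 1 with only the libraries compared and 2 to 6 with 1 library left out. Without adipogenic control replicate 2 and knockout replicate 1 together, the counts were 6 between genotypes in adipogenic medium, 6 in the interaction, 7 between media in the controls and 6 in the knockouts. Under a replicate block the counts were 3 between genotypes in adipogenic medium, where Pparg (adjusted p = 0.0213) and Cebpa (0.0352) passed, and 0 in the interaction, where Ebf1 was at an adjusted p of 0.0512. Over the alternatives that left no single library out, the block among them, 1707 to 4276 of all tested genes were called between genotypes in adipogenic medium. In the interaction the range was 2073 to 2588. The share under the block alone is not given, so the count of 3 has no background beside it. Same-numbered adipogenic libraries of the genotypes deviated together at r = 0.466, 0.397 and -0.286, and all other pairs were between -0.0558 and 0.0859. These values cannot show whether same-numbered libraries share an animal, which the labels do not say. Among all tested genes the number called was 1170 between genotypes in osteogenic medium, and 526 after rescaling, 3412 with only the libraries compared, 744 with the block and 522 to 662 with 1 library left out. It was 4276 between genotypes in adipogenic medium, and 1707 with only the libraries compared, 6559 without control replicate 2, 2723 without knockout replicate 3 and 6575 without both doubted libraries. It was 2630 for the interaction, and 5427 without control replicate 2 and 5793 without both. Between media in the controls it was 2935, and 527 with only the libraries compared, 1943 with the block, 6147 without control replicate 2, 6397 without both and 1367 to 1583 without any other single library. Between media in the knockouts it was 3592, and 5378 without both. Without both, these counts were 51.9%, 45.7%, 50.5% and 42.4% of the genes tested, in the order genotypes in adipogenic medium, interaction, media in the controls and media in the knockouts. The cause of these differences was not tested. Klf15, Ebf2 and Zfp423 rest on few fragments, and the pseudocount compresses their differences. Of their genotype differences in adipogenic medium, only that of Ebf2 passed in the fit without a filter (adjusted p = 0.00709, limma).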
